A study of Mus musculus with 16 samples.

Results

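Podocyte genes were read as a glomerular contrast to the tubule in mouse kidneys 24 h after unilateral ureteral obstruction (UUO), in which the ureter of 1 kidney is blocked. The genes were given by a list of 7 symbols that mark podocytes, NPHS1, PODXL, SYNPO, WT1, CD2AP, PTPRO and MAGI2. A row with the symbol was found for 4 of the 7 (PODXL, CD2AP, PTPRO and MAGI2) in the table of genes. NPHS1, SYNPO and WT1 were not analysed here.

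Podocytes are epithelial cells that wrap the glomerular capillaries with interlocking foot processes. The slits between these processes are bridged by the slit diaphragm, a junction built around nephrin (NPHS1), and the processes stand on a basement membrane that podocytes share with the capillary endothelium. Obstruction of the ureter is known foremost for injury of the tubule, which makes up most of the kidney and lies downstream of the glomerulus.

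RNA of 16 kidneys was hybridized to Illumina MouseRef-8 v2 BeadChips, 1 array for each kidney, and an array is called by its label number. Wildtype (WT) mice gave 2 control arrays (3811 and 3812) and 7 UUO arrays, of which 3818, 3819 and 3820 belong to set 1 of the mice and 3892, 3893, 3894 and 3895 to set 2. IL-33-deficient mice gave 2 control arrays (3813 and 3814) and 5 UUO arrays, 3821 and 3822 of set 1 and 3897, 3898 and 3899 of set 2. For the controls neither a set nor an operation is stated, so set and surgery cannot be fully told apart from the obstruction itself. The IL-33-deficient line had been backcrossed to C57BL/6J BomTac for 10 generations, and its allele is not described in the sources used here. An age of 8 weeks is given for mice where nothing else is stated. The labels do not say that every kidney came from a mouse of its own, so p-values measure the spread between these arrays, and the small number of arrays, above all the 2 controls of each genotype, limits the precision.

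All levels are log2 intensities, and every difference is on the log2 scale, UUO minus control or IL-33-deficient minus WT. A level of background was taken from 1075 olfactory receptor genes, a family with little expression in kidney. The 95th percentile of their mean log2 intensities was 7.0, and 9721 genes (53.6%) of the table lay above it. The tubule markers SLC34A1 and UMOD stood far above that limit, with mean log2 intensities of 13.54 and 13.39 over the 16 arrays. PODXL and PTPRO, with means of 9.69 and 7.21, were above the limit as well, while CD2AP and MAGI2, with 6.79 and 6.84, were below it. Intensities near background compress differences, which bears on PTPRO and on both genes below the limit. In RNA of a whole kidney, fewer podocytes and less RNA per podocyte cannot be told apart.

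IL33, the deleted gene, was read first as a check of the labels. Its log2 intensity was 7.62 and 8.02 in WT controls and ranged from 8.39 to 9.57 with a median of 9.44 in WT kidneys after UUO. In IL-33-deficient kidneys it was 6.88 and 6.85 in controls and 6.88, 6.80, 7.02, 6.88 and 6.88 after UUO. Every IL-33-deficient array lay below every WT array and at or next to the limit of background. After UUO the genotypes differed by -2.36 (SE 0.17, adjusted p = 9.6e-05), a lower bound of the size since the IL-33-deficient arrays were at background, and IL33 was the only gene called at an adjusted p under 0.05 in that comparison (0.00552% of all genes).

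PODXL encodes podocalyxin, a sialic acid-rich protein that coats the apical surface of foot processes and keeps them apart, and which endothelial cells also carry. Its log2 intensity was 9.74 and 9.89 in WT controls, and in WT kidneys after UUO the lowest, median and highest of 7 arrays were 9.56, 9.62 and 9.88. Without IL-33 it was 9.63 and 9.66 in controls and 9.45, 9.71, 9.77, 9.78 and 9.77 after UUO. Control and UUO arrays overlapped in both genotypes, with most WT arrays below their controls and all IL-33-deficient arrays but 3821 above theirs. The UUO minus control difference was -0.15 in WT kidneys (SE 0.09, 95% confidence interval -0.34 to 0.04, adjusted p = 0.343) and 0.05 in IL-33-deficient kidneys (SE 0.09, interval -0.15 to 0.25, adjusted p = 0.811). Averaged over the genotypes it was -0.05 (interval -0.19 to 0.09), or 0.966-fold with an interval from 0.879-fold to 1.06-fold. An exact two-sided permutation of the arrays within each genotype, with 756 arrangements, gave p = 0.485 for that average. No change of PODXL was detectable with these arrays. Differences within the interval of the average are compatible with them, so a small fall or rise was not excluded. The difference between both responses was 0.20 (interval -0.08 to 0.47, adjusted p = 0.973).

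The small differences of PODXL moved with the arrays used, without a call under any alternative. They ranged from -0.22 (without WT control 3811) to -0.07 (without 3812) in WT kidneys. In IL-33-deficient kidneys they lay between -0.07 with the UUO arrays of set 1 alone and 0.13 with those of set 2 alone, and in the average between -0.14 and 0.01 with the same sets.

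The group means of PODXL were 9.82 ± 0.11 (SD, n = 2) in WT controls, 9.69 ± 0.14 (SD, n = 5) in IL-33-deficient kidneys after UUO, 9.67 ± 0.11 (SD, n = 7) in WT kidneys after UUO and 9.65 ± 0.02 (SD, n = 2) in IL-33-deficient controls. In this order, from highest to lowest, the arrays of each group overlapped those of the next.

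PTPRO encodes a receptor-type tyrosine phosphatase of the apical foot process membrane. Its log2 intensity was 7.15 and 7.36 in WT controls, and the lowest, median and highest WT arrays after UUO were 7.13, 7.24 and 7.26. In IL-33-deficient kidneys it was 7.29 and 7.30 in controls and 7.16, 7.15, 7.15, 7.18 and 7.12 after UUO. The WT groups overlapped, since the WT controls lay farther apart from each other than the UUO arrays did. Every IL-33-deficient UUO array lay below both of its controls. There the difference was -0.14 (SE 0.05, interval -0.25 to -0.03, adjusted p = 0.0619), or 0.907-fold, with an exact two-sided permutation p of 0.0476, the smallest that 5 against 2 arrays allow. In WT kidneys it was -0.05 (SE 0.05, adjusted p = 0.638), and the difference between both responses was -0.09 (adjusted p = 0.973), so the genotypes were not shown to differ. The averaged difference of -0.09 (SE 0.04, interval -0.17 to -0.02) had an adjusted p of 0.0592 and an exact permutation p of 0.00926.

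PTPRO thus lay just outside the threshold, and its call depended on single arrays. Without WT control 3811 the averaged difference was -0.15 with an adjusted p of 0.00381, and without WT control 3812 the difference in WT kidneys turned to 0.06. Over all alternatives the adjusted p of the averaged difference ranged from 0.00381 to 0.461.

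The promoter of PTPRO is shown because it is the member whose difference came nearest to the threshold. RefSeq promoter stretches were matched for 3 of the 4 measured members (PTPRO, CD2AP and MAGI2). The 250 bases before the start of PTPRO, chr6:137252049-137252298 of GRCm38.p6 on the + strand, are given from 5′ to 3′. Capitals mark E-boxes, the motif CANNTG bound by basic helix-loop-helix factors such as TCF21, a regulator of podocyte development. The motif reads the same on both strands.
PTPRO: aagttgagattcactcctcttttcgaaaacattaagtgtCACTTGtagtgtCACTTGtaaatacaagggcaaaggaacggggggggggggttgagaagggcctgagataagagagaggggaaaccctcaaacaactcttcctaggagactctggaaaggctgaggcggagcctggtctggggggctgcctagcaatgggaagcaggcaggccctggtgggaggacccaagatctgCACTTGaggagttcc
The stretch holds 3 E-boxes, all of them CACTTG. Of 32841 promoter stretches of 250 bases, 66.2% hold at least 1 E-box and 12.2% hold 3 or more, so matches of this kind are frequent. A match describes the letters and does not show that a factor binds there.

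CD2AP and MAGI2 encode adaptors on the inner side of the slit diaphragm. CD2AP ties it to the actin cytoskeleton, and MAGI2 is a scaffold that binds nephrin. Over the 16 arrays CD2AP ranged from 6.72 to 6.94 and MAGI2 from 6.75 to 6.97, so no array exceeded the limit of background. Their averaged differences were -0.01 for CD2AP (interval -0.09 to 0.06, adjusted p = 0.840) and -0.07 for MAGI2 (interval -0.13 to -0.00, adjusted p = 0.113). In WT kidneys every MAGI2 array after UUO lay below both controls, but by a mean of only -0.04, and the exact two-sided permutation p was 0.111. In IL-33-deficient kidneys MAGI2 differed by -0.09 with overlap (exact p = 0.0952), and its averaged difference had an exact permutation p of 0.0265. MAGI2 passed an adjusted p of 0.05 in 1 alternative, without IL-33-deficient control 3813 (-0.10, adjusted p = 0.0338, with a range from 0.0338 to 0.521 over its alternatives). Neither gene can be read as a level of its transcript in these kidneys.

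**Figure D1:**
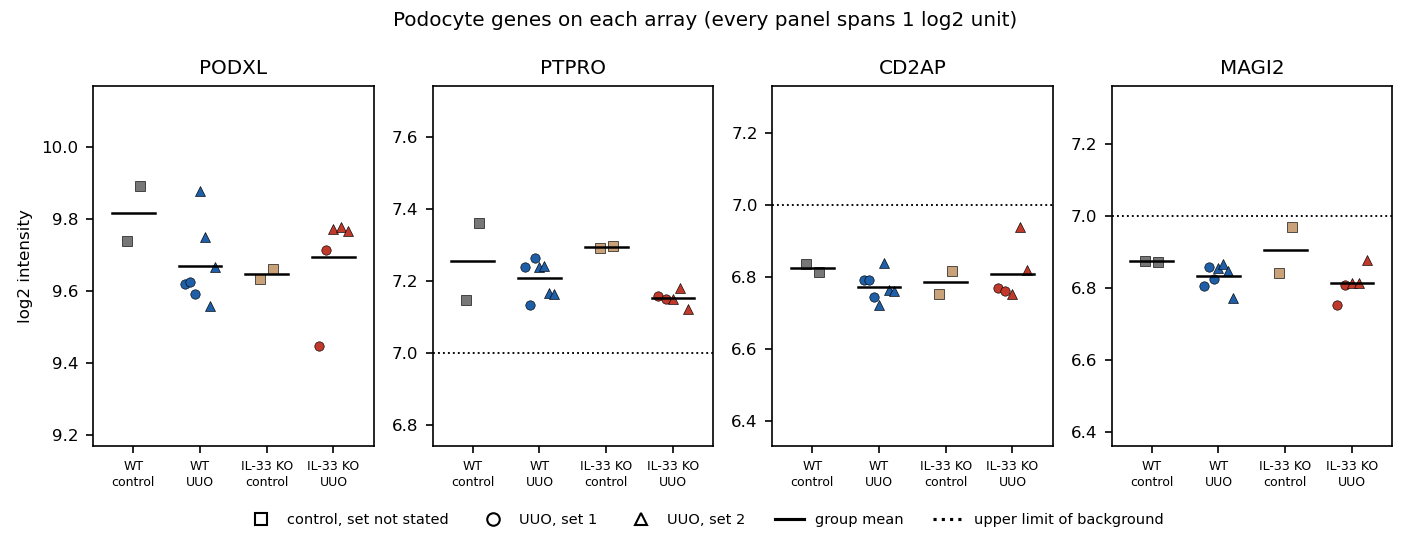
Log2 intensity (vertical axis, each panel spanning 1 unit) of PODXL, PTPRO, CD2AP and MAGI2 on each array, by group on the horizontal axis, with squares for controls, circles for UUO arrays of set 1, triangles for those of set 2, a line at each group mean and a dotted line at the background limit of 7.0. Control and UUO arrays overlap in both genotypes for PODXL, while for PTPRO the IL-33-deficient UUO arrays, at 7.12 to 7.18, lie below their controls at 7.29 and 7.30.

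The members were then set against the whole table. After UUO limma called 0 of 4 members in WT kidneys, where 15.2% of all genes were called, 0 of 4 in IL-33-deficient kidneys, where 21.8% were, and 0 of 4 in the average, where 28.2% were. At an unadjusted p under 0.05 these counts were 0, 2 and 2 of 4, the genes being PTPRO and MAGI2 each time, where 26.0%, 30.7% and 35.7% of all genes had such a p. The members had median differences of -0.05, -0.03 and -0.06 in the same order, and the medians of all genes were -7.6e-04, -5.7e-04 and -0.00112. With 2 of the 4 at background, MAGI2 among them, these counts are too few to set the members apart from other genes.

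The deviations of the members from their group means were weakly alike over the 16 arrays. Pearson's r ranged from -0.06 between PTPRO and MAGI2 to 0.45 between PODXL and MAGI2, and it was 0.32 between PODXL and PTPRO. These values describe 16 arrays that share a normalization.

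A wider list held 64 further podocyte symbols, of which 53 had a row here and 16 of these were at background. In the average 13 of the 53 fell and 10 rose, where 14.5% of all genes were called lower and 13.7% higher, and among genes above background 25.2% lower and 24.5% higher. The median difference of the 53 was -0.02. Together 43.4% of the 53 were called, against 28.2% of all genes, and of those above background 62.2% against 49.7%. In WT kidneys 10 fell (18.9%, against 8.22% of all genes) and 3 rose (5.66% against 6.97%), and in IL-33-deficient kidneys 10 fell (18.9% against 11.2%) and 8 rose (15.1% against 10.6%). These podocyte genes therefore moved in both directions, and a larger share of them than of the table was called, which no test was applied to. Many of them are also made by other cells of the kidney, which the array cannot separate.

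Of 13 measured genes of the slit diaphragm and its junctions, 5 were at background, among them KIRREL, a nephrin relative, with an averaged difference of -0.05. In the average 1 gene of this list fell and 2 rose. CD151, a tetraspanin that also occurs widely outside podocytes, rose by 1.07 (SE 0.13, adjusted p = 1.87e-05), and the atypical cadherin FAT1 was called higher. All 4 controls of FAT1 lay below the limit of background, so no size is given for its rise. The junction protein TJP1 (0.27, adjusted p = 0.0593), the scaffold IQGAP1 (0.25, adjusted p = 0.0628) and the calcium channel TRPC6 (-0.01) did not pass. The list had a median of 0.06.

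Of 10 measured genes of the foot process cytoskeleton and its apical scaffold, 3 fell and 4 rose, with a median of -0.04. SLC9A3R2, the scaffold that links podocalyxin to the actin cytoskeleton through ezrin, was at 9.28 and 9.45 in WT controls and at 8.56, 8.65 and 8.82 (lowest, median and highest) after UUO. In IL-33-deficient kidneys it was at 9.11 and 9.26 in controls and at 8.78, 8.66, 8.66, 8.74 and 8.66 after UUO. No UUO array reached a control in either genotype. SLC9A3R2 fell by 0.60 on the log2 scale on average (SE 0.05, adjusted p = 7.07e-07), or to 0.660-fold, while no change of PODXL was detectable. In RNA of a whole kidney the cells in which SLC9A3R2 fell cannot be told, so this is not shown to be a change within podocytes. ARHGAP24, a regulator of Rac, fell by 0.91 (SE 0.17, adjusted p = 8.9e-04) and RHPN1 by 0.26 (SE 0.04, adjusted p = 1.5e-04), both on the log2 scale. The intermediate filament gene VIM, which injured tubule and interstitial cells also express, rose by 1.40 (SE 0.20, adjusted p = 6.8e-05). ACTN4, the actin crosslinker of foot processes, rose by 0.19 (SE 0.04, adjusted p = 0.00295), as did NES (0.27). ANLN was called higher as well, from controls that all lay below the limit of background.

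Of 10 regulators of transcription and of the cell cycle, 5 were at background. TCF21, KLF15 and CDKN1C fell in the average and none rose, with a list median of -0.01. TCF21 was at 8.40 and 8.78 in WT controls and at 7.82, 8.09 and 8.44 (lowest, median and highest) after UUO. Without IL-33 it was at 9.10 and 8.94 in controls and at 8.35, 8.29, 8.37, 8.25 and 8.18 after UUO. The WT groups overlapped through array 3818, and the IL-33-deficient groups did not. On average TCF21 fell to 0.655-fold (-0.61, SE 0.10, adjusted p = 3.0e-04). KLF15, a zinc finger factor linked to podocyte differentiation, fell by 0.36 and CDKN1C, which keeps podocytes out of the cell cycle, by 0.21 on the log2 scale. The size for KLF15 is a lower bound, since its IL-33-deficient UUO arrays, at 6.85 to 7.03, were at or next to background. FOXC1 rose in IL-33-deficient kidneys (0.33, adjusted p = 0.0327) and did not pass in WT kidneys (-0.06), but the difference between both responses did not pass either (0.39, adjusted p = 0.973).

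The stretch before TCF21 is printed beside that of PTPRO, as the factor named for the E-box is itself a gene that fell. It lies at chr10:22820144-22820393 of GRCm38.p6 on the - strand, is credited to RefSeq and is written in the direction of the gene.
TCF21: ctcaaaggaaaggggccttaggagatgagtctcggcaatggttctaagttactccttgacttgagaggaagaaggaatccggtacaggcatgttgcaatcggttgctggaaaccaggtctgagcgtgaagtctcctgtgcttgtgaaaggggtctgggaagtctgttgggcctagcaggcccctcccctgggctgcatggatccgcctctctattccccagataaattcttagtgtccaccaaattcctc
It holds 0 E-boxes, which says only that these letters are not in this window.

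Of 20 surface and secreted genes of podocytes, 6 fell and 4 rose, 5 were at background and the median was -0.04. The chemokine CXCL12 fell by 1.25 (SE 0.17, adjusted p = 4.22e-05), the growth factor BMP7 by 0.66 (SE 0.16, adjusted p = 0.00528), VEGFA, the growth factor of the capillary endothelium, by 0.56 (SE 0.08, adjusted p = 1.1e-04) and the protease HTRA1 by 0.48 (SE 0.07, adjusted p = 6.4e-05) on the log2 scale. SCEL and DAG1 fell by 0.42 and 0.18 on the same scale. The value of SCEL leaned on WT control 3811, at 7.86 against 7.12 on 3812, and was -0.23 without that array, with UUO arrays of 6.88 to 7.09 around the limit of background. The integrin chains ITGA3 and ITGB1, which hold foot processes to the basement membrane, rose by 0.52 and 0.39, and SULF1 and SEMA5A by 0.29 and 0.24. CXCL12, VEGFA, BMP7 and the integrins are also expressed in tubule or vessel cells.

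COL4A3 and COL4A4, collagen chains made by podocytes for the mature glomerular basement membrane, were among the 10 podocyte and basement membrane genes with the largest called differences. COL4A3 was at 9.57 and 9.66 in WT controls and at 8.48, 8.75 and 9.54 (lowest, median and highest) after UUO. In IL-33-deficient kidneys it was at 9.31 and 9.49 in controls and at 8.30, 8.18, 8.37, 8.39 and 8.36 after UUO. Every UUO array lay below both controls of its genotype, though WT array 3820 only narrowly. On average COL4A3 fell to 0.519-fold (-0.95, SE 0.14, adjusted p = 9.8e-05) and COL4A4 to 0.507-fold (-0.98, SE 0.12, adjusted p = 1.57e-05). Of 9 measured basement membrane genes, 4 fell and 4 rose, with a median of -0.07. COL4A5 and LAMB2 fell by 0.17 and 0.28 on the log2 scale, and AGRN (0.73), NID1 (0.34), LAMC1 (0.30) and HSPG2 (0.20) rose. The chains that rose also occur in basement membranes of tubules and vessels, and COL4A3 and COL4A4 occur in some tubule segments.

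**Figure D2:**
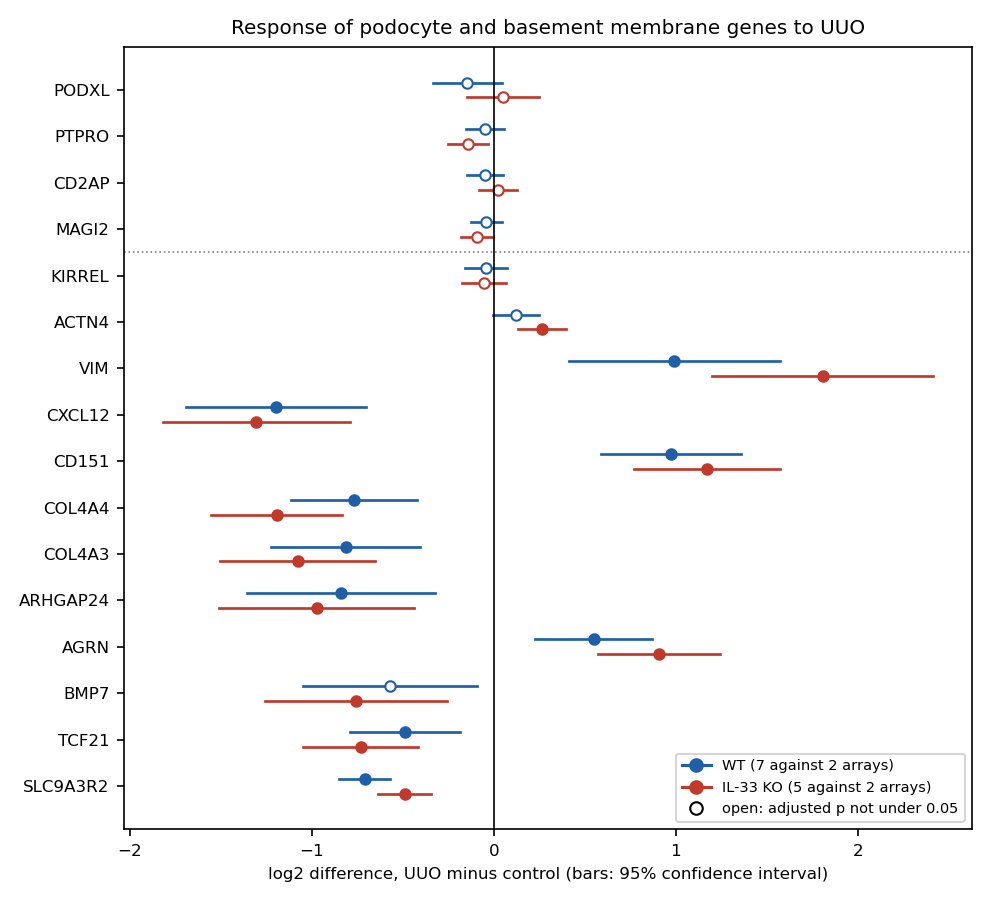
UUO minus control difference in log2 intensity (horizontal axis) with 95% confidence intervals as bars for 4 members, KIRREL, ACTN4 and the 10 podocyte and basement membrane genes with the largest called differences (vertical axis), WT in blue, IL-33-deficient in red, filled where the adjusted p was under 0.05. The members lie between -0.15 and 0.05, while SLC9A3R2 lies at -0.71 and -0.49.

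The other cell types of the glomerulus gave a mixed picture. Of 12 endothelial genes, 7 fell and 1 rose in the average, with a median of -0.26. None were at background, and EMCN had the highest intensity. EHD3, an endothelial gene enriched in glomerular capillaries, fell by 0.56 (SE 0.07, adjusted p = 1.43e-05), and the VEGF receptor FLT1 and ESM1 by 0.35 each on the log2 scale. PLVAP, which marks fenestrated vessels outside the glomerulus, rose by 0.15 in the average, with 0.31 in IL-33-deficient kidneys and -0.00 in WT kidneys, though the difference between both responses did not pass (0.32, adjusted p = 0.973). EMCN (-0.04) and PECAM1 (0.04) did not pass. The summed intensity of the 12 genes was 9128 and 9355 in WT controls, 8093 to 8910 in WT kidneys after UUO, 8797 and 9619 in IL-33-deficient controls and 8240 to 9076 in IL-33-deficient kidneys after UUO. Of 9 mesangial and perivascular genes, 2 fell, among them the angiotensin receptor AGTR1A by 0.78 on the log2 scale, and 3 rose, among them PDGFRB by 0.55 and DES by 0.52. PDGFRA did not pass (-0.20), and the median was -0.08. Of 7 parietal epithelial genes, 3 rose and 1 fell, with a median of 0.12. CLDN1 and ALDH1A2 rose by 1.16 and 1.19, and DKK3 fell by 0.52 on the log2 scale. Their part in the podocyte results was not tested.

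The tubule lists had larger median differences than the podocyte lists. Single podocyte or basement membrane genes, such as CXCL12 (-1.25) and COL4A4 (-0.98), still differed by more than the proximal tubule median. Of 16 proximal tubule genes, 12 fell and 0 rose in the average, with a median of -0.87. In WT kidneys limma called 4 of them and in IL-33-deficient kidneys 12, and at an unadjusted p under 0.05 there were 10 and 14. The phosphate carrier SLC34A1 (-1.05, SE 0.22, adjusted p = 0.00210), the fatty acid transporter SLC27A2 (-0.45) and the oxygenase MIOX (-2.59) fell. KAP, the gene of that list with the highest intensity, did not pass (-0.09). The summed intensity of the list was 103971 and 108788 in WT controls, 48529 to 99978 in WT kidneys after UUO, 107198 and 111478 in IL-33-deficient controls and 38499 to 59385 in IL-33-deficient kidneys after UUO. SLC4A4 was the 1 gene of it at background.

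Of 12 genes of the thick limb and distal tubule, 9 fell, with a median of -0.59, among them EGF (-4.51) and KLK1 (-0.44). UMOD, its gene with the highest intensity, did not pass (-0.47, adjusted p = 0.0695), and CALB1 was at background. Their summed intensity was 42878 and 48183 in WT controls and 20564 to 41019 after UUO, and 42361 and 45643 in IL-33-deficient controls and 21942 to 25732 after UUO. Of 12 collecting duct genes, 5 fell, with a median of -0.45. SLC26A4, the most intense of them, fell by 1.02 on the log2 scale. SCNN1G (-0.45) and SCNN1B (-0.27) did not pass, and AVPR2 and ATP6V0D2 were at background. Their summed intensity was 5651 and 6476 in WT controls and 2736 to 4928 after UUO, and 6112 and 6299 in IL-33-deficient controls and 2995 to 3385 after UUO.

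All 11 measured genes of tubular injury rose, with a median of 1.35. HAVCR1 rose by 6.15 (SE 0.45, adjusted p = 3.4e-07), LCN2 by 5.76 and SPP1, the most intense of them, by 1.35. CD44 was at background by its mean. Their summed intensity was 6902 and 8245 in WT controls and 24801 to 53435 after UUO, and 7713 and 8561 in IL-33-deficient controls and 42940 to 53965 after UUO. Of 16 leukocyte genes 6 rose and 1 fell, with a median of 0.07. CD14, the most intense, rose by 2.76, S100A8 by 2.06 and CD52 by 0.77, and CSF1R fell by 0.38 on the log2 scale. PTPRC, ITGAM, MS4A1 and CCR2 were at background. The leukocyte sum was 3264 and 3391 in WT controls and 4043 to 7809 after UUO, and 2867 and 3099 in IL-33-deficient controls and 5348 to 7932 after UUO. Of 7 immediate early and heat shock genes, 5 rose, with a median of 0.76, EGR1 by 2.43 and HSPA8 by 0.70, while DNAJB1 did not pass (0.03). By comparison the summed intensity of the 4 members was 1229 and 1345 in WT controls and 1121 to 1313 after UUO. In IL-33-deficient kidneys it was 1173 and 1205 in controls and 1057 to 1258 after UUO. Control and UUO arrays overlapped in both genotypes, and PODXL had the highest intensity of the 4. How far these shifts of tubule, injury and leukocyte transcripts bear on the podocyte values, which are shares of the same RNA, was not tested.

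**Figure D3:**
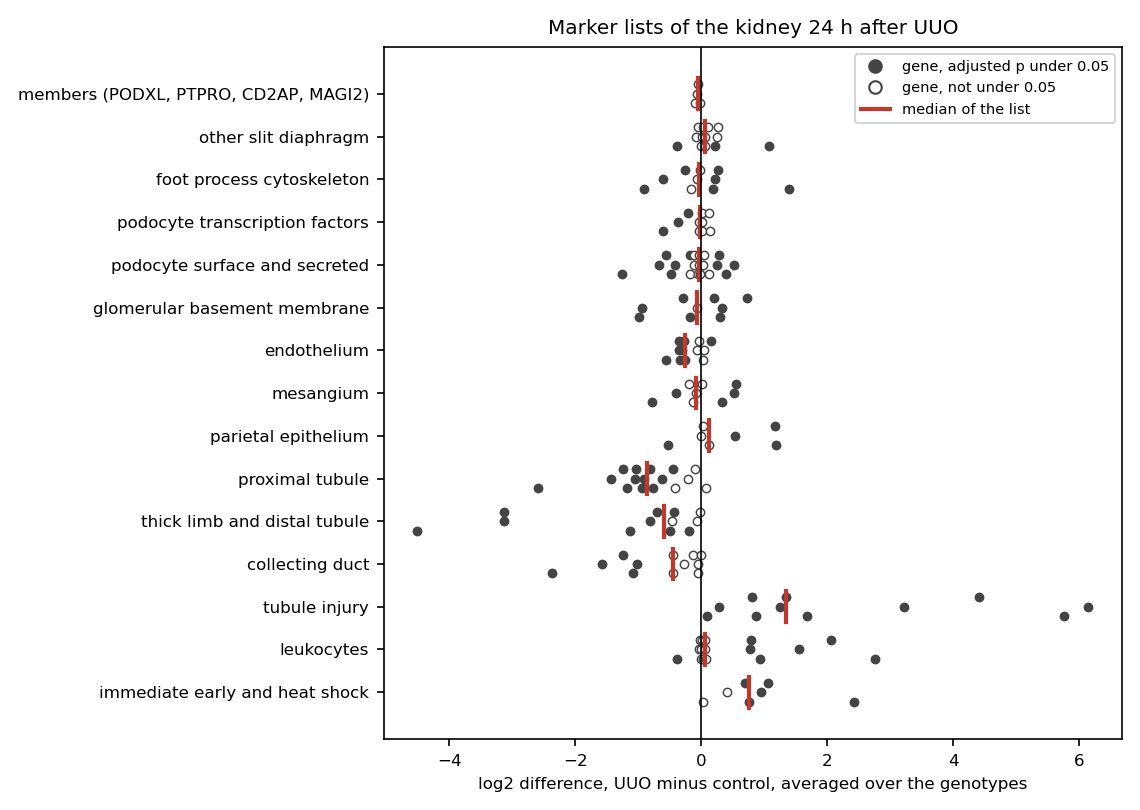
UUO minus control difference in log2 intensity averaged over the genotypes (horizontal axis) for each gene (points, filled where the adjusted p was under 0.05) of the members and 14 marker lists (vertical axis), with a red line at the median of each list. The members lie at a median of -0.06, the proximal tubule genes at -0.87 and the injury genes at 1.35.

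Podocyte and tubule genes were then followed kidney by kidney, as the distance of each UUO array from the control mean of the same genotype, a display chosen after the values were seen. WT array 3820 lay nearest to the controls for several tubule genes, though not for all of them. Its SLC34A1 lay 0.03 above the control mean and its HAVCR1 3.19 above it, where HAVCR1 of the other UUO arrays lay 5.61 to 6.72 above. COL4A3 and COL4A4 also lay near the controls on this array, with distances of -0.08 and -0.18, against -0.71 to -1.22 and -0.72 to -1.28 on the others. SLC9A3R2 did not, and on array 3820 it lay at -0.71, inside the range of the other WT arrays, -0.80 to -0.55. The fall of SLC9A3R2 was present in the kidney with the lowest HAVCR1 after UUO. This single array allows no test, and the cells in which SLC9A3R2 fell cannot be told from it. PODXL was at -0.23 on that array, where the WT arrays ranged from -0.26 to 0.06.

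**Figure D4:**
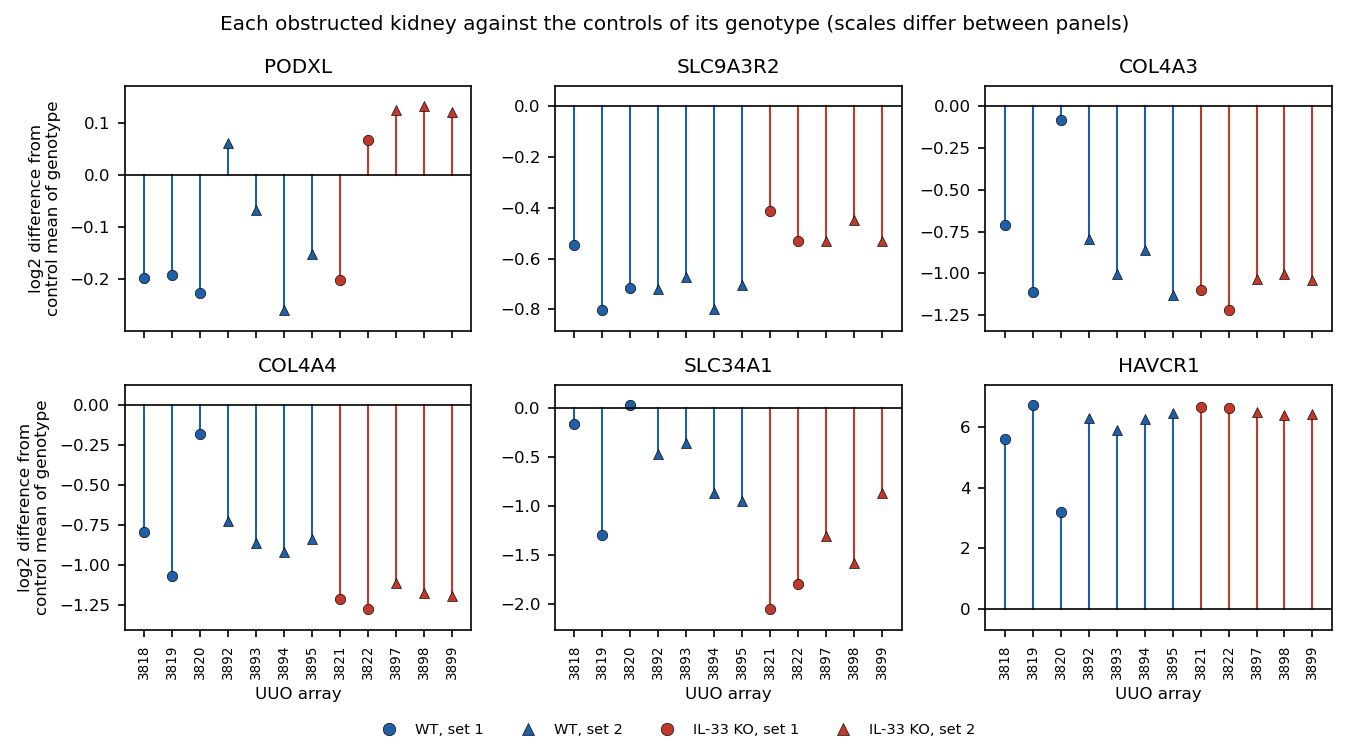
Log2 difference of each UUO array from the control mean of the same genotype (vertical axis, with scales that differ between panels) for PODXL, SLC9A3R2, COL4A3, COL4A4, SLC34A1 and HAVCR1, by array number (horizontal axis), WT in blue, IL-33-deficient in red, circles for set 1 and triangles for set 2. On array 3820 COL4A3 is at -0.08 and SLC34A1 at 0.03, while SLC9A3R2 is at -0.71.

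The genotypes were compared in controls and after UUO, which asks whether the absence of IL-33 bears on podocyte genes. In controls limma called 0 of 4 members and 0.0% of all genes, with 0 of 4 and 664 of all genes at an unadjusted p under 0.05. After UUO it called 0 of 4 members, with 0 of 4 at an unadjusted p under 0.05, where 1874 of all genes had one. At a looser threshold (unadjusted p under 0.05, adjusted p under 0.25 and fold change above 1.3) 0 of 4 members and 0.011% of all genes were called, the genes being IL33 and ACTA2, a smooth muscle actin named after its value was seen. That count depended on the arrays used, with 226 genes against the 4 WT arrays of set 2 alone and 309 without WT array 3819. The difference between both responses to UUO gave 0 of 4 members and 0.0% of all genes, with 0 of 4 and 860 of all genes at an unadjusted p under 0.05. PODXL differed by 0.03 between the genotypes after UUO (interval -0.12 to 0.17, adjusted p = 0.941), by -0.03 within set 1 and by 0.06 within set 2. Its difference in controls was -0.17 (interval -0.41 to 0.07, adjusted p = 1.0), with no overlap between 2 and 2 arrays, and it made up most of the difference of 0.20 between both responses. PTPRO differed by -0.05 (interval -0.12 to 0.01, adjusted p = 0.552), with an exact two-sided permutation p of 0.0518 and with -0.06 and -0.05 within the sets. CD2AP and MAGI2 differed by 0.04 and -0.02, within background.

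Of the 53 further podocyte genes limma called 0 in controls, 0 after UUO and 0 for the difference between both responses, with 6 (11.3%), 8 (15.1%) and 2 (3.77%) at an unadjusted p under 0.05, against 3.66%, 10.3% and 4.74% of all genes. SEMA5A (0.30, adjusted p = 0.320) and KLF15 (-0.26, adjusted p = 0.320), named after their values were seen, were among those with the smallest adjusted p after UUO. For KLF15 the size is a lower bound, since its IL-33-deficient UUO arrays were at or next to background.

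The genes whose deviations from the group means were most like those of a podocyte gene over the 16 arrays were listed as a description, without a test. For the mean of the 4 members they were PLA2G4E (r = 0.837), GDI2 (0.827), PREB (0.826), GGT1 (0.819) and WBSCR16 (0.792). PODXL was most like AMD2 (0.859), EG623661 (0.830), DNAJC18 (0.794), RPP21 (0.783) and AI314976 (0.764). PTPRO was most like FBXO46 (0.792), followed by a pair of RIKEN clones, SIAH1A (0.756) and TMEM116 (0.737). No gene of the podocyte lists was among these, and with 9721 genes searched over 16 arrays such values of r arise readily.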

How the data were processed

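Kidney RNA was measured on 16 Illumina arrays and grouped by the genotype and treatment in the labels. The authors deposited linear intensities, 1 per gene symbol, imported with beadarray and, per the submitters' processing notes, BeadStudio 2. Background correction, normalization and the joining of probes are not given in the sources used here, and no detection p was used. The intensities, already alike between arrays, were quantile-normalized and taken to log2. lmFit and eBayes of limma 3.58.1 (R 4.3.3) were applied to 4 groups of 16 arrays, and to the 12 UUO arrays for the genotypes after UUO, with Benjamini-Hochberg adjustment over 18132 genes and calls at an adjusted p under 0.05. The looser threshold after UUO follows the study. Exact two-sided permutation tests of arrays were used for single genes. Python 3.11.15, numpy 2.4.6, pandas 2.3.3 and matplotlib 3.10.9 were used elsewhere, and the fits were tested on simulated data.

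The members and marker lists were chosen with earlier results of these data known. Named genes were the members, IL33, KIRREL and ACTN4, the 10 podocyte or basement membrane genes with the largest called averaged difference, the 3 most intense genes of each other list, and the 5 genes most like the mean of the members. The rule's likeness to NPHS1 could not be applied. The likeness to PODXL and PTPRO, and other genes of the lists given as examples, were added after values were seen. The permutation test of IL33, the promoter motif and the display by kidney were added then as well. NPHS1, SYNPO, WT1, further list symbols without a row and arrays of human fibroblasts were not analysed here. Alternatives covered normalization, background, prior variance, array weights, dim genes, sets of mice, the arrays in the fit and each array left out.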

Additional observations from a re-analysis of the deposited data

Results flagged for a closer look

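The values of 17 genes in 34 groups of 5 or 7 arrays were searched for an array that stands far from the rest of its group, and 8 groups held one. Chance alone gives about 1 in 20 groups. The 8 cases lie on 3 arrays, 3818, 3820 and 3821, all of set 1, and cases on the same array are not independent of each other. PODXL was at 9.45 on IL-33-deficient UUO array 3821, where the others lay between 9.71 and 9.78, and BMP7 was at 7.50 on the same array against 7.84 to 7.96. On WT UUO array 3818, KIRREL was at 7.04 against 6.80 to 6.89, next to background, and IL33 at 8.39 against 9.10 to 9.57. On WT UUO array 3820, VIM was at 8.11 against 9.03 to 9.51, CD151 at 10.87 against 11.43 to 11.83, COL4A4 at 8.94 against 8.06 to 8.40 and COL4A3 at 9.54 against 8.48 to 8.91. These last values of array 3820 all lie toward the WT controls. Why these arrays stood apart was not tested.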

How the results depend on the processing

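Counts of all genes moved most with the arrays used. For UUO in WT kidneys 2754 genes became 1778 with that genotype alone, 188 with set 1 alone and 4241 with set 2 alone, and 809 (without WT control 3812) to 3578 with an array left out, 1051 without control 3811. In IL-33-deficient kidneys 3955 became 2258 with set 1 alone and 2276 (without control 3813) to 3798 with an array left out, 2575 without control 3814. The average of 5117 became 3225 with set 1 alone. The 0 genes with different responses became 2 with set 2 alone, 1 without arrays 3818 and 3820, and 0 to 1 (without 3818) with an array left out. The 1 gene between the genotypes after UUO became 2 with array weights, 3 without 3818 and 3820, 0 with set 1 alone, 7 with set 2 alone, 28 against the 4 WT arrays of set 2, and 1 to 2 (without 3895) with an array left out. At the looser threshold 2 became 80 with array weights, 146 with genes above background alone, 43 without 3818 and 3820, 1 with set as a block, 0 with set 1 alone, 81 with set 2 alone, 127 with 16 arrays in one model, 226 against the 4 WT arrays of set 2, and 1 to 309 (without 3819) with an array left out. Of the members, PTPRO made 1 call in IL-33-deficient kidneys without further normalization (adjusted p = 0.0443) and with that genotype alone (0.0337), and 1 in the average without further normalization (0.0423), with array weights and without 3818 and 3820. With an array left out the average gave 0 to 1 members, PTPRO without 3811 (0.00381) or 3820 (0.0474) and MAGI2 without 3813 (0.0338). The 10 other podocyte genes that rose became 6 (without control 3814) to 12 with an array left out, and those that fell stayed between 9 and 15. Of 791 values of 37 results for single genes, 765 kept their side of the threshold and their direction. Of the rest 0 reversed a call, 15 changed sign without a call, 8 gained a call and 3 lost it. The 3 losses came in set 1 alone, for ACTN4 (0.0776), BMP7 (0.118) and IL33 (0.736). In set 1 alone IL33 still differed by -2.18, against -2.36 with all UUO arrays. Over all alternatives ACTN4 lay between 0.15 and 0.24 and BMP7 between -0.92 and -0.60. Set 1 has fewer arrays, and the cause of the other shifts was not tested. Signals near background limit CD2AP, MAGI2 and PTPRO. No paired analysis was possible because array numbers are unique to a kidney.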
